A study of Mus musculus with 10 samples.

Results

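Oxidative phosphorylation was read here from 108 array probes for 86 genes, out of 25697 probes for 16593 genes. They are all probes whose annotated gene symbol begins with Nduf, Uqcr, Cyc1, Cox4 to Cox8 or Atp5, or is Sdha to Sdhd. By complex they are 45 probes for 35 complex I genes, 8 probes for 5 complex I assembly factors (Ndufaf), 6 probes for 3 complex II genes, 10 probes for 9 complex III genes, 21 probes for 18 complex IV genes and 18 probes for 16 complex V genes. The choice used names only and no measured value, but it was made with earlier results of these data known. It also takes in Ndufs5-ps, annotated as a pseudogene, and the subunits encoded by mitochondrial DNA are not among its symbols.

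The RNA came from mouse KH2 embryonic stem cells, a line made to switch a transgene on with doxycycline, which here carries Sox17 with a V5 tag. Of 10 Illumina bead arrays, 5 are labelled Sox17-V5 expression after 48 h of doxycycline (titles Sox17(+) 1 to 5, called labelled induced) and 5 are labelled control (titles Sox17(-) 1 to 5, called labelled uninduced). All 10 samples share the KH2 line and the embryonic stem cell culture, and no clone, passage or feeder layer is named. The treatment protocol names doxycycline for every sample. Nothing says that replicates came from separate cultures, and the p values then reflect sample-to-sample spread that may be technical only. The members were read by label and by title group, since the replicate numbers in the descriptions restart at title 4. No label names a batch, and titles 1 to 3 and titles 4 and 5 are only called title groups.

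Oxidative phosphorylation is carried out in the inner mitochondrial membrane. Complexes I and II pass electrons from NADH and succinate to ubiquinone, complex III passes them to cytochrome c, and complex IV, cytochrome c oxidase, passes them to oxygen. Complexes I, III and IV pump protons, and complex V, the ATP synthase, makes ATP as protons flow back. Most subunits are encoded in the nucleus, and in many of their promoters sites for NRF1 and for ETS factors such as GABP are known. Mouse embryonic stem cells are known to use both glycolysis and respiration.

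A few promoters are shown because 2 kinds of binding motif known from these genes were searched in them. RefSeq windows (GRCm38.p6) of the 250 bases before the transcription start were matched for 70 of the 86 genes, in 75 windows. The core of the NRF1 motif, GCGCANGCG or its complement CGCNTGCGC, occurred in 13 member windows (17.3%), against 5.16% of all windows and 7.08% of those of protein-coding genes. The ETS motif CCGGAAG or its complement CTTCCGG also occurred in 13 member windows (17.3%), against 6.91% of all windows and 8.98% of coding ones, and 4 member windows held both. Member windows also held more CG dinucleotides, which both motifs contain, with a median of 14 against 6 over all windows and 10 over coding ones. A match is a description and not evidence of binding. Cox6a1 lies on chr5:115348959-115349208, minus strand, with NRF1 matches starting at -162 and -117, an ETS match at -16 (counted back from -1, the base before the start) and 26 CG dinucleotides. One of the windows of Ndufa5, on chr6:24527691-24527940, minus strand, has an NRF1 match at -26 and 12 CG dinucleotides. Cox8a, on chr19:7217617-7217866, minus strand, and its muscle-type paralog Cox8b, on chr7:140900447-140900696, minus strand, are shown as a pair of subunit VIII genes of which only the first was well above background. Neither window holds either motif, and they have 11 and 1 CG dinucleotides. Capitals mark the motif matches, and in these windows the 2 motifs do not overlap.
Cox6a1: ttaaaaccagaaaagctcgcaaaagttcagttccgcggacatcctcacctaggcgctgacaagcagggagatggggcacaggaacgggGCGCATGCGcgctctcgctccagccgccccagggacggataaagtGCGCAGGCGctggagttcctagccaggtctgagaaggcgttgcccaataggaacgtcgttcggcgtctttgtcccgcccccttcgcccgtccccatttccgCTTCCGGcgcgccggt
Ndufa5: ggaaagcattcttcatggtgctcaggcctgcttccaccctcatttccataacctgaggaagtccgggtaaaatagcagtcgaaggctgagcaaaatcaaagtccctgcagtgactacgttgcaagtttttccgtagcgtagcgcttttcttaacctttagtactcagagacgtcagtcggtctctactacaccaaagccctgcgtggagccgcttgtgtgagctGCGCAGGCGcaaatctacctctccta
Cox8a: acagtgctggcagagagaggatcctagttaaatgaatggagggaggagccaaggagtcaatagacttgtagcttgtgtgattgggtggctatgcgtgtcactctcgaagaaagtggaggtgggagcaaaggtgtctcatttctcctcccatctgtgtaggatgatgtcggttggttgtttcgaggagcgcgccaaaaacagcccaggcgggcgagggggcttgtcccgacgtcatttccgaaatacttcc
Cox8b: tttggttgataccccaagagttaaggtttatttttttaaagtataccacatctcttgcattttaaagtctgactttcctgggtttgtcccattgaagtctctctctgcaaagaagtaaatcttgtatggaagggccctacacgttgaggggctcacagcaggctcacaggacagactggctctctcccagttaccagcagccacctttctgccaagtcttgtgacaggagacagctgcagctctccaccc

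The values are normalized intensities. A probe was tested where it lay above a background limit of 10.6 on at least 5 of the 10 arrays, which held for 97 member probes of 79 genes, out of 14985 probes in all. The 11 member probes too dim to be tested were those of Ndufs1, Cox4i2, Cox6a2, Cox7b2, Cox8b, Cox8c and Atp5k, 2 of the Ndufaf7 probes, and 1 further probe each of Sdhc and Atp5j. Differences are on the scale of log2(intensity + 16), labelled induced minus labelled uninduced unless said otherwise, with the SE after the sign ±, and called means an adjusted p under 0.05. Sox17 went against the labels. The probe that could be tested read 67.3 on the array labelled induced 1, between 11.99 and 16.6 on induced 2 to 5, 60.6 and 65.3 on uninduced 4 and 5, and between 30.5 and 32.6 on uninduced 1 to 3 (adjusted p = 0.120 between labels). A second, dimmer probe read 42.9 on induced 1, -2.30 to 4.74 on induced 2 to 5, 32.2 and 35.4 on uninduced 4 and 5, and 6.11 to 19.2 on uninduced 1 to 3. Whether titles were exchanged between samples was not tested, and the groups and the sign of every label difference below are those of the titles. By the pattern of 1357 chemosensory receptor probes, which carry mostly background, induced 2 to 5 resembled each other (rank correlation 0.820 to 0.845) and are called set 2. The other 6 arrays, induced 1 and all labelled uninduced, are called set 1 only as the rest, since they correlated no more with each other (0.433 to 0.527) than with set 2 (0.416 to 0.517). Over all tested probes the first principal component (56.7% of the variance) placed set 2 between 26.8 and 36.5 and the rest between -24.1 and -18.4. The second (20.4%) placed induced 1 at -17.3, beside uninduced 4 and 5 (-17.0 and -17.5) and not beside the other arrays with titles 1 to 3 (14.8 to 17.6). Label and set differ in 1 array only, induced 1, and the results of named members are also given without it where that changes a call. Embryonic stem cell markers were above background for 10 of 10 genes, and their summed intensity was 49770 to 53723 on arrays labelled induced and 53749 to 55970 on arrays labelled uninduced, with 1 called higher (Utf1) and 2 lower (Sox2 and Klf4). Extraembryonic endoderm markers, 10 of 10 tested, did not follow the label. They summed to 11174 on induced 1, 3800 to 3960 on induced 2 and 3 and 7476 to 7597 on induced 4 and 5. On uninduced 4 and 5 they summed to 10937 to 11893, and on uninduced 1 to 3 to 3660 to 3809. Fibroblast markers summed to 224 on induced 1, 184 to 190 on induced 2 and 3, 141 to 142 on induced 4 and 5, 210 to 213 on uninduced 4 and 5 and 334 to 348 on uninduced 1 to 3. Of 7 of them 4 were bright enough to test, 2 called higher (Acta2 and Twist1) and 2 lower (Thy1 and Prrx1), and Col1a1, Col1a2 and Col3a1 were too dim. The part of these markers in the member results was not tested. In bulk RNA, fewer cells of a type and less RNA per cell cannot be told apart.

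Bright oxidative phosphorylation probes varied little over the arrays. The median SD of the tested member probes over the 10 arrays was 0.13 log2, against 0.23 over all tested probes. Of the members 71.1% lay above an intensity of 1000, against 18% of all tested probes. Among probes above 1000 the median SD was 0.11 for 69 members and 0.15 for 2700 probes. Up to 1000 it was 0.23 for 28 members and 0.25 for 12285 probes. Members were also brighter within each range, with median intensities of 3697 against 2033 above 1000 and 257 against 105 up to 1000. The part of intensity in these SDs was not tested. Atp5b, the catalytic beta subunit of ATP synthase, read 19726, 20029, 19726, 20354 and 19858 on arrays labelled induced 1 to 5 and 19858, 20029, 19578, 19726 and 19726 on arrays labelled uninduced 1 to 5. The exact value 19726 recurs on 4 arrays. Every deposited value recurs exactly on another array, so a reading stands closely for a rank on its array. The small spread of this probe is then mostly a spread of ranks near the top of the range. Cox4i1, the ubiquitous subunit 4 of cytochrome c oxidase, read 13176, 11543, 12802, 13663 and 13176 on arrays labelled induced and 12671, 12304, 11685, 14975 and 13746 on arrays labelled uninduced. The arrays of both labels overlapped for both genes.

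Read by complex, no array stood far from the rest. The median of the 44 complex I probes, each set against its own mean over arrays, lay between -0.03 and 0.08 log2 on every array. The complex IV median was -0.12 on induced 2, -0.01 on induced 3, 0.04 and 0.01 on induced 4 and 5 and 0.03 on induced 1, against 0.06 and 0.16 on uninduced 4 and 5 and -0.03, -0.01 and -0.05 on uninduced 1 to 3. Complex V medians lay between 0.00 and 0.05 on arrays labelled induced and between -0.08 and 0.02 on arrays labelled uninduced. Only beside the largest label difference of a single member probe (0.90) are these shifts small. The median size of that difference was 0.12 over all members, 0.08 in complex IV and 0.09 in complex V.

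**Figure D1:**
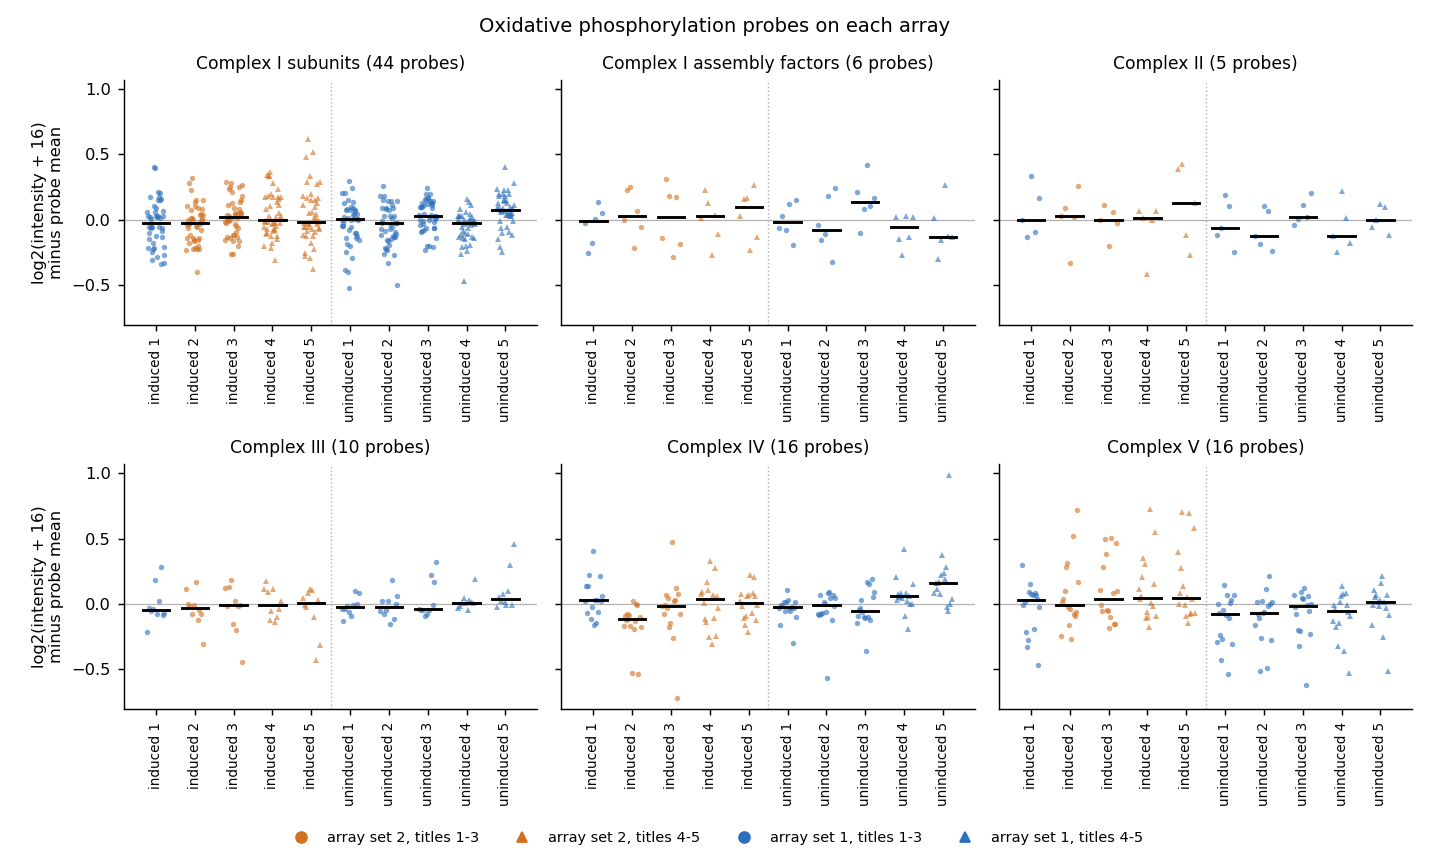
Each point is one tested probe on one array, as log2(intensity + 16) minus the probe's mean over the 10 arrays, in 6 panels by complex, with arrays labelled induced left of the dotted line and uninduced right of it. Black bars are medians, colours mark the array set and shapes the titles; the medians of all panels lie between -0.13 and 0.13 on every array apart from complex IV on uninduced 5, at 0.16.

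Between the labels, few of these genes were called. Of 97 member probes 10 were called (10.3%), 5 higher and 5 lower on arrays labelled induced, against 2919 of 14985 probes in all (19.5% called, 9.06% higher and 10.4% lower). The called probes were Atp5j, Atp5o, Atp5e, Ndufab1 and Ndufa5 among the higher and Uqcrq, Ndufaf5, Ndufc1, Ndufb3 and Ndufb6 among the lower. Complex V gave 3 higher and 0 lower of 16, complex I 2 higher and 3 lower of 44, complex III and the assembly factors 1 lower each, and complexes II and IV 0 calls of 5 and 16 probes. At an unadjusted p under 0.05, 26 members passed (26.8%), against 39.1% of all probes. The median member difference was 0.00, against 0.01 over all probes. The 95% interval lay within 0.5 log2 of 0 for 77 of the 97 members and within 1.0 for 95. Members above an intensity of 1000 gave 3 calls of 69 (4.35%), all lower, against 10.4% of all probes above 1000. Dimmer members gave 7 calls of 28 (25%), against 21.5%. Within each range the members were brighter than all probes, as given above.

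The calls rest on which arrays are compared. Without the array labelled induced 1, 30 members were called (30.9%), 16 higher and 14 lower, against 45.5% of all probes (22.6% higher and 22.9% lower), and all 10 probes above were among them. Without any one of induced 2, 4 and 5 or uninduced 1, 2 and 3, limma called 0 members, against 0.0934% to 0.347% of all probes. It called 2 members without induced 3 (4.26% of all probes), 6 without uninduced 4 (12.4%) and 7 without uninduced 5 (13%). With the array set as a block, which leaves induced 1 against the 5 uninduced arrays of its set, limma called 0 members and 0 probes in all (2 members and 724 probes, 4.83%, at an unadjusted p under 0.05). The 5 arrays of each label did not overlap for 7 members (7.22%), against 6.85% of all probes, with 4 members above (3.16% of all probes) and 3 below (3.68%). Induced 2 to 5 lay entirely above the other 6 arrays for 15 members and entirely below them for 13 (28.9% in both directions), against 34.9% of all probes (17.6% above and 17.3% below), which is a description of a grouping seen in the data and has no test.

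**Figure D2:**
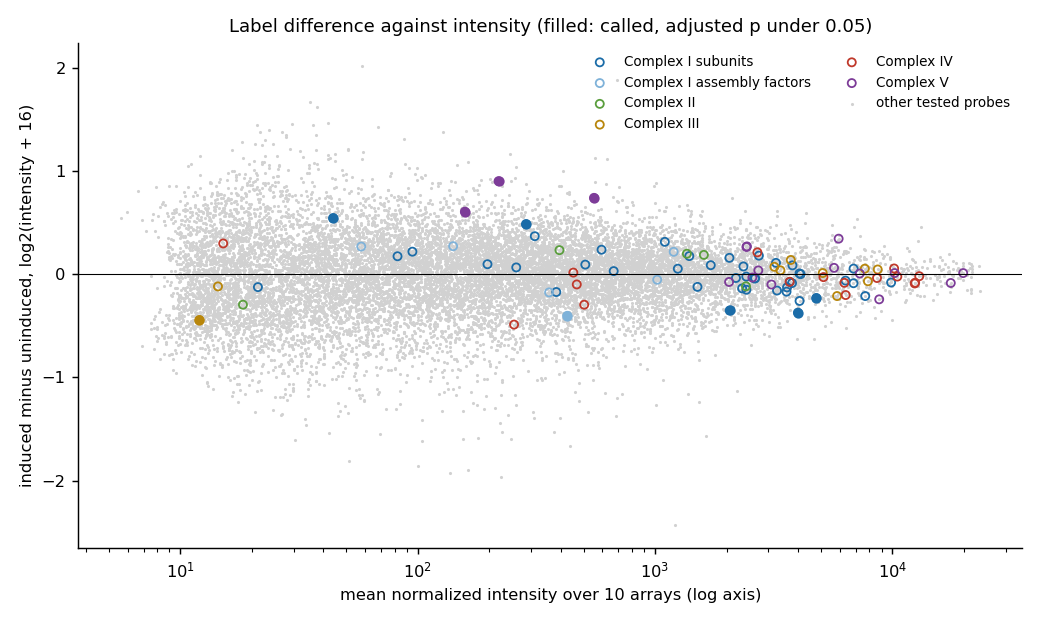
The label difference of each tested probe (labelled induced minus labelled uninduced, log2(intensity + 16)) is plotted against its mean intensity on a log axis; coloured rings are oxidative phosphorylation probes by complex, filled where called, and grey points are all other tested probes. Of the 69 members above an intensity of 1000 only 3 are filled, and they lie between -0.37 and -0.23.

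The called complex I probes are those of accessory subunits, which surround the catalytic core and make up most of the complex I genes tested. Ndufa5, of the arm that faces the matrix, read 281, 344, 304, 359.6 and 396 on arrays labelled induced 1 to 5 and 211, 230.4, 262, 231 and 240.0 on arrays labelled uninduced 1 to 5. The label means were 337 ± 45.3 and 235 ± 18.6 (SD, n = 5 each), the difference was 0.49 ± 0.10 (adjusted p = 0.0209), and the 2 labels did not overlap. These values come from a dimmer probe, and the most intense Ndufa5 probe, described below, went the other way (-0.15 ± 0.09, adjusted p = 0.243). Ndufab1, the mitochondrial acyl carrier protein and also a complex I subunit, read 35.4, 56.6, 54.8, 57.4 and 73.6 on arrays labelled induced and 35.2, 34, 33.7, 26.1 and 33.2 on arrays labelled uninduced. Induced 1 lay only just above the highest uninduced array, and the difference was 0.54 ± 0.13 (adjusted p = 0.0238).

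The called complex I probes that were lower belong to the arm in the membrane. Ndufb3 read 2131, 1816, 1702, 1749 and 1666 on arrays labelled induced 1 to 5 and 2507, 2256, 2418, 2125 and 2253 on arrays labelled uninduced 1 to 5, and induced 1 fell within the uninduced range (difference -0.35 ± 0.09, adjusted p = 0.0265). Ndufb6 read 4856, 4086, 4387, 4477 and 4189.6 on arrays labelled induced and 5015, 4995, 5179, 5312 and 5283 on arrays labelled uninduced, without overlap (-0.23 ± 0.07, adjusted p = 0.0492). Ndufc1 read 4564, 2975, 3799, 3176 and 3032 on arrays labelled induced and 4656, 4342, 4505, 4322 and 4609 on arrays labelled uninduced (-0.37 ± 0.12, adjusted p = 0.0465). Here too induced 1 lay inside the uninduced range while induced 2 to 5 lay below it. The most intense complex I genes were Ndufa13, also known as GRIM-19, and Ndufa4, which has also been assigned to complex IV. Ndufa13 averaged 9591 ± 113 and 10149 ± 494 on arrays labelled induced and uninduced (SD, n = 5 each, difference -0.08, adjusted p = 0.400). Ndufa4 read 8623 on induced 1 and 6292 to 7082 on induced 2 to 5, against 7752 to 8653 on arrays labelled uninduced (-0.21 ± 0.09, adjusted p = 0.113). Without induced 1 it was lower by the same test (-0.28, adjusted p = 0.00681).

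Of the 5 complex I assembly factors, which build the enzyme and are not part of it, only Ndufaf5 was called. That is 1 of 6 probes (16.7%), against 19.5% of all probes. Ndufaf5, which hydroxylates an arginine of the core subunit Ndufs7, read 421, 359.7, 342, 347 and 356 on arrays labelled induced 1 to 5 and 458, 479, 568, 428 and 509 on arrays labelled uninduced 1 to 5. Every array labelled induced was below every array labelled uninduced (-0.40 ± 0.09, adjusted p = 0.0234), although a second probe of the gene, described below, went the other way. Ndufaf4 averaged 1290.1 ± 141 on arrays labelled induced and 1106 ± 101 on arrays labelled uninduced (0.22 ± 0.10, adjusted p = 0.131) and passed without induced 1 (0.29, adjusted p = 0.0137), and Ndufaf1 averaged 1001 ± 45.9 and 1041 ± 81.7 (SD, n = 5 each, -0.05, adjusted p = 0.637).

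Complexes II and III showed 1 call in 15 probes, where 19.5% of all probes were called. Sdhb, the iron-sulfur subunit of succinate dehydrogenase, read 1591, 1631, 1589.6, 1671 and 2093 on arrays labelled induced 1 to 5 and 1471, 1466, 1550.4, 1463 and 1531 on arrays labelled uninduced 1 to 5. The labels did not overlap, but the difference of 0.19 ± 0.09 did not pass (adjusted p = 0.142), and induced 5 stood above the rest of its label. These values are from the most intense Sdhb probe. Another tested probe of the gene gave 0.20 ± 0.11 (adjusted p = 0.189). The dimmest tested Sdhb probe, near background at a mean of 18.4, went the other way (-0.30 ± 0.13, adjusted p = 0.109). It was called lower without induced 1 (-0.42, adjusted p = 0.00165). Sdhc, a membrane anchor of the same enzyme, averaged 2321 ± 205 on arrays labelled induced and 2511 ± 74.9 on arrays labelled uninduced (SD, n = 5 each, -0.12, adjusted p = 0.297). In complex III, Uqcrq, a small accessory subunit, read 10.3, 6.27, 4.22, 12 and 6.16 on arrays labelled induced and 13.1, 12.7, 18.3, 15.4 and 21.9 on arrays labelled uninduced. All arrays labelled uninduced were above the background limit of 10.6 and 4 arrays labelled induced were not, so the call (adjusted p = 0.0280) stands for a level at least 1.5-fold lower, at means of 7.79 ± 3.23 and 16.3 ± 3.87 (SD, n = 5 each), close to background. Among the intense complex III genes, Uqcr10 differed by 0.05 ± 0.08 (adjusted p = 0.672) and Uqcrh, the hinge protein next to cytochrome c1, by -0.07 ± 0.07 (adjusted p = 0.493).

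In complex V 3 of 16 probes were called (18.8%), all higher, against 19.5% of all probes called and 9.06% called higher. Atp5j, coupling factor 6 of the peripheral stalk, read 177, 300.4, 297, 348 and 340.0 on arrays labelled induced 1 to 5 and 136, 141, 127, 156 and 169 on arrays labelled uninduced 1 to 5. This was the largest member difference, 0.90 ± 0.16 (adjusted p = 0.0194), and the labels did not overlap. It comes from a dimmer probe, and the most intense Atp5j probe, described below, went the other way (-0.24 ± 0.08, adjusted p = 0.0542). Atp5o, the oligomycin sensitivity conferring protein at the top of that stalk, read 372, 868, 726, 770.2 and 788 on arrays labelled induced and 418, 428, 442, 356 and 361 on arrays labelled uninduced. The call (0.74 ± 0.19, adjusted p = 0.0294) came from induced 2 to 5, since induced 1 lay inside the uninduced range. Atp5e, the epsilon subunit of the central stalk, read 117, 187, 219, 197 and 256 on arrays labelled induced and 108, 101, 118, 118 and 159 on arrays labelled uninduced, again with induced 1 inside the uninduced range (0.61 ± 0.18, adjusted p = 0.0376). Other stalk subunits were not called: Atp5pb and Atp5h of the peripheral stalk gave 0.04 and -0.08, and Atp5c1 and Atp5d of the central stalk 0.06 and 0.26 (adjusted p = 0.750, 0.534, 0.546 and 0.0955). Without induced 1 Atp5d passed (0.35, adjusted p = 0.00485).

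**Figure D3:**
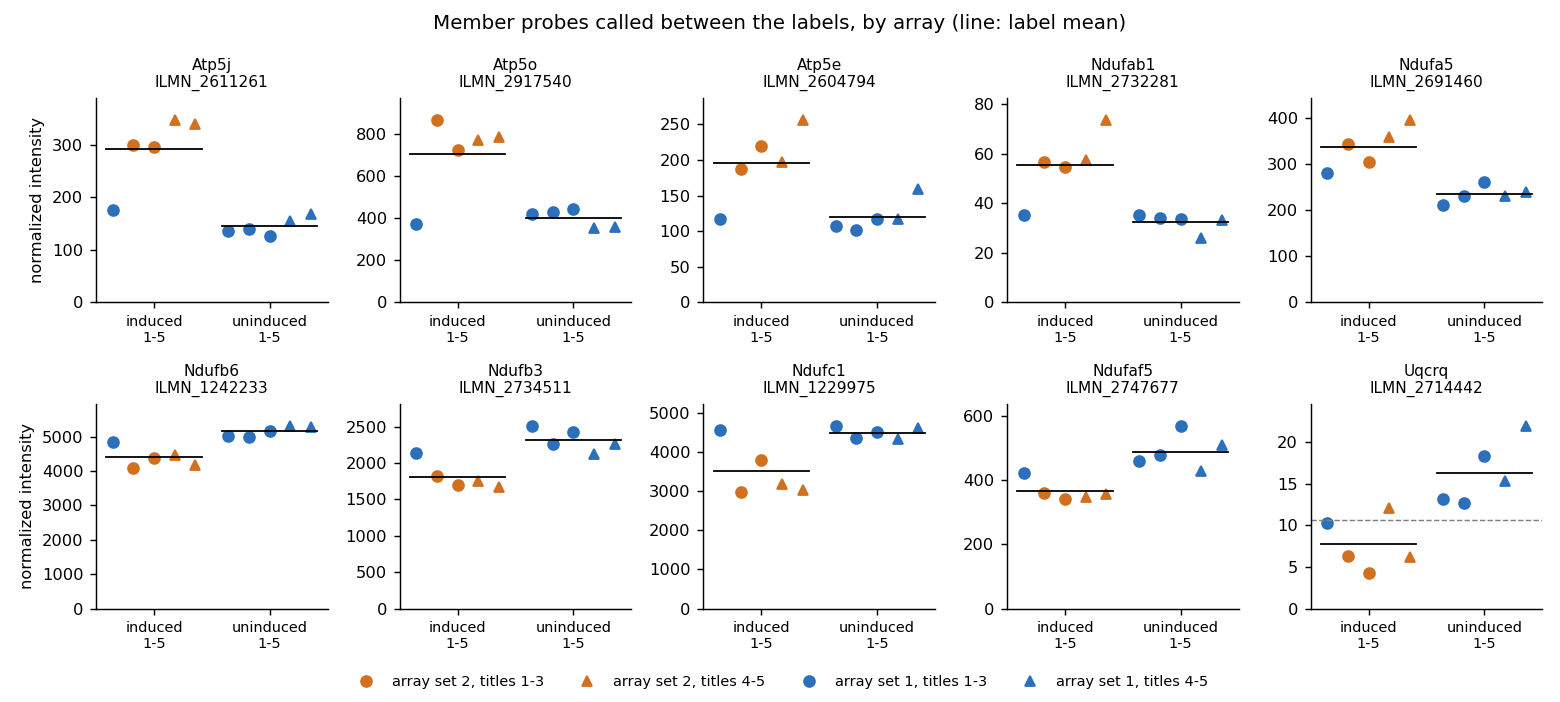
Normalized intensity on each array is plotted for the 10 member probes called between the labels, with arrays labelled induced 1 to 5 left of uninduced 1 to 5 in each panel, lines at the label means and the background limit dashed for Uqcrq. Blue marks array set 1 and orange set 2; in Atp5o, Atp5e, Ndufb3 and Ndufc1 the array labelled induced 1 lies within the uninduced range.

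Without induced 1 the 10 differences were larger, with 1.06 for Atp5j, 0.95 for Atp5o, 0.76 for Atp5e, 0.66 for Ndufab1, 0.55 for Ndufa5, -0.27 for Ndufb6, -0.41 for Ndufb3, -0.45 for Ndufaf5, -0.47 for Ndufc1 and -0.48 for Uqcrq. With the set as a block, which compares induced 1 alone with its set, they shrank to 0.26 for Atp5j, 0.25 for Ndufa5, 0.09 for Ndufab1, -0.09 for Ndufb6, -0.11 for Ndufb3, -0.20 for Ndufaf5 and -0.29 for Uqcrq, and turned sign for Atp5o (-0.10), Atp5e (-0.02) and Ndufc1 (0.03). For these genes the label and the array set cannot be told apart beyond that 1 array.

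None of the tested core subunits named here, with or without a redox centre, was called. Those below were named after their values were seen. They lie above an intensity of 1000, where 4.35% of members and 10.4% of all probes were called. Uqcrfs1 of complex III, near background at a mean of 14.4, is not among them and was not called either (-0.12, adjusted p = 0.506). In complex I, Ndufv1, which binds NADH, averaged 3904 ± 106 on arrays labelled induced and 3679.5 ± 169 on arrays labelled uninduced (SD, n = 5 each, 0.09 ± 0.07, adjusted p = 0.371, interval -0.07 to 0.24). Its partner Ndufv2 gave 0.01 (interval -0.14 to 0.15). The core subunits Ndufs3, Ndufs7 and Ndufs8 gave 0.08, 0.11 and 0.09, with no interval reaching beyond 0.29 in either direction. Cyc1, cytochrome c1 of complex III, read 2731, 3443, 3452, 3434 and 3279 on arrays labelled induced 1 to 5 and 3099, 3061, 3091, 3108 and 3121 on arrays labelled uninduced 1 to 5. Induced 1 was its lowest array of all and induced 2 to 5 its highest (0.07 ± 0.08, adjusted p = 0.537). The core proteins Uqcrc1 and Uqcrc2 of the same complex gave 0.14 ± 0.08 (adjusted p = 0.193) and -0.21 ± 0.08 (adjusted p = 0.0748), and without induced 1 both passed, in opposite directions (0.17, adjusted p = 0.0491, and -0.24, adjusted p = 0.0174). In ATP synthase, Atp5a1, the alpha subunit that pairs with Atp5b, averaged 2676 ± 439.5 on arrays labelled induced and 2199.8 ± 204 on arrays labelled uninduced (SD, n = 5 each, 0.27 ± 0.12, adjusted p = 0.122).

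Several called genes have a second probe that did not follow the first. Of 14 member genes with several tested probes, 9 had probes of opposite sign and 5 had a called probe, and with all 10 arrays in 0 of them was more than 1 probe called. Without induced 1 more than 1 probe was called in 4 of the 14 genes, in 2 of these with opposite signs (Atp5j and Ndufaf5). The most intense Atp5j probe read 9200.4, 7267, 8159, 7765 and 7924 on arrays labelled induced 1 to 5 and 9200.4, 9501, 9543, 9221 and 10163 on arrays labelled uninduced 1 to 5. Its difference of -0.24 ± 0.08 (adjusted p = 0.0542) was opposite to the 0.90 of the dimmer probe, and without induced 1 both were called, at -0.29 (adjusted p = 0.00512) and 1.06. The most intense Ndufa5 probe, at 2296 ± 171 on arrays labelled induced and 2554 ± 256 on arrays labelled uninduced (SD, n = 5 each), gave -0.15 ± 0.09 (adjusted p = 0.243) where the called probe gave 0.49. The second Ndufaf5 probe, at 156 ± 10.8 on arrays labelled induced and 127 ± 15.6 on arrays labelled uninduced, gave 0.27 ± 0.09 (adjusted p = 0.0561) where the called one gave -0.40, and without induced 1 both were called, at 0.27 (adjusted p = 0.0355) and -0.45. The second probes gave 0.07 for Ndufb6 (adjusted p = 0.632) and -0.12 for Ndufc1 (adjusted p = 0.258). Counted by the most intense probe of each gene, 8 of 79 genes were called, 3 higher and 5 lower, against 19.5% of all genes (8.5% higher and 11% lower). Where the probes of these genes lie on their transcripts is not used here, so which probe stands for the gene was not tested.

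Several subunits have tissue-specific paralogs, and some of these read at or near background. Cox4i2, the lung and hypoxia form of subunit 4, read 4.47, -1.50, 0.643, -8.79 and -6.54 on arrays labelled induced 1 to 5 and 16.6, 19.8, 17.3, 11.2 and 0.387 on arrays labelled uninduced 1 to 5. It was above the limit on 4 arrays, all labelled uninduced, and was too dim to be tested. Cox6a2, the heart and muscle form, did not exceed 9.85 on any array, and Cox7b2, a testis form, did not exceed 6.25. Cox8b, the muscle form whose promoter is shown above, read 23.1 on induced 1 and at most 10.6 on the other 9 arrays, and Cox8c, a testis form, reached 16.2 on uninduced 3 and at most 10.4 elsewhere. The ubiquitous forms were all far above the limit: Cox6a1 averaged 8503 ± 683 on arrays labelled induced and 8715 ± 566 on arrays labelled uninduced, and Cox8a 12026 ± 719.6 and 12799 ± 809.6 (SD, n = 5 each). Neither passed the test (-0.04, adjusted p = 0.764, interval -0.22 to 0.15, and -0.09, adjusted p = 0.414, interval -0.26 to 0.08).

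Other paralogs were measured side by side. Cox6b2, known as the testis form of subunit 6b, read 656, 337, 442, 409 and 421 on arrays labelled induced 1 to 5 and 531, 472, 455, 664 and 642 on arrays labelled uninduced 1 to 5. Its highest arrays were uninduced 4, induced 1 and uninduced 5, and the label difference of -0.30 ± 0.17 did not pass (adjusted p = 0.207). It passed without induced 1 (-0.43, adjusted p = 0.0195) and within titles 4 and 5 (-0.63, adjusted p = 0.0101). Cox6b1 differed by -0.03 ± 0.08 (adjusted p = 0.816). A dim second Cox6b2 probe gave 0.30 (adjusted p = 0.193). Cox7a1, the muscle form, averaged 451 ± 30.8 on arrays labelled induced and 485 ± 53.8 on arrays labelled uninduced, and Cox7a2, the ubiquitous form, 455 ± 23.0 and 451 ± 39.6 (SD, n = 5 each), and neither was called (adjusted p = 0.435 and 0.903). Cox7a2l, which helps join complexes III and IV into supercomplexes, read 2565, 2665, 2916, 3257 and 3089 on arrays labelled induced and 2177, 2467, 2465, 2800.1 and 2582 on arrays labelled uninduced (0.21 ± 0.10, adjusted p = 0.123), and it passed without induced 1 (0.25, adjusted p = 0.0397). The c subunit of the ATP synthase rotor is encoded by paralogs whose mature proteins are the same. Of these Atp5g1 read 4815, 7253, 7622, 7230.5 and 6434 on arrays labelled induced and 4861, 4871, 5068, 5283 and 5901 on arrays labelled uninduced. Induced 2 to 5 lay above all other arrays and induced 1 below them all. The difference of 0.34 ± 0.13 did not pass (adjusted p = 0.0690), but it passed without induced 1 (0.46, adjusted p = 0.00145). Atp5g2 and Atp5g3 differed by -0.03 ± 0.07 and -0.09 ± 0.08 (adjusted p = 0.760 and 0.456). No Ndufa4l2 probe was among the members.

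**Figure D4:**
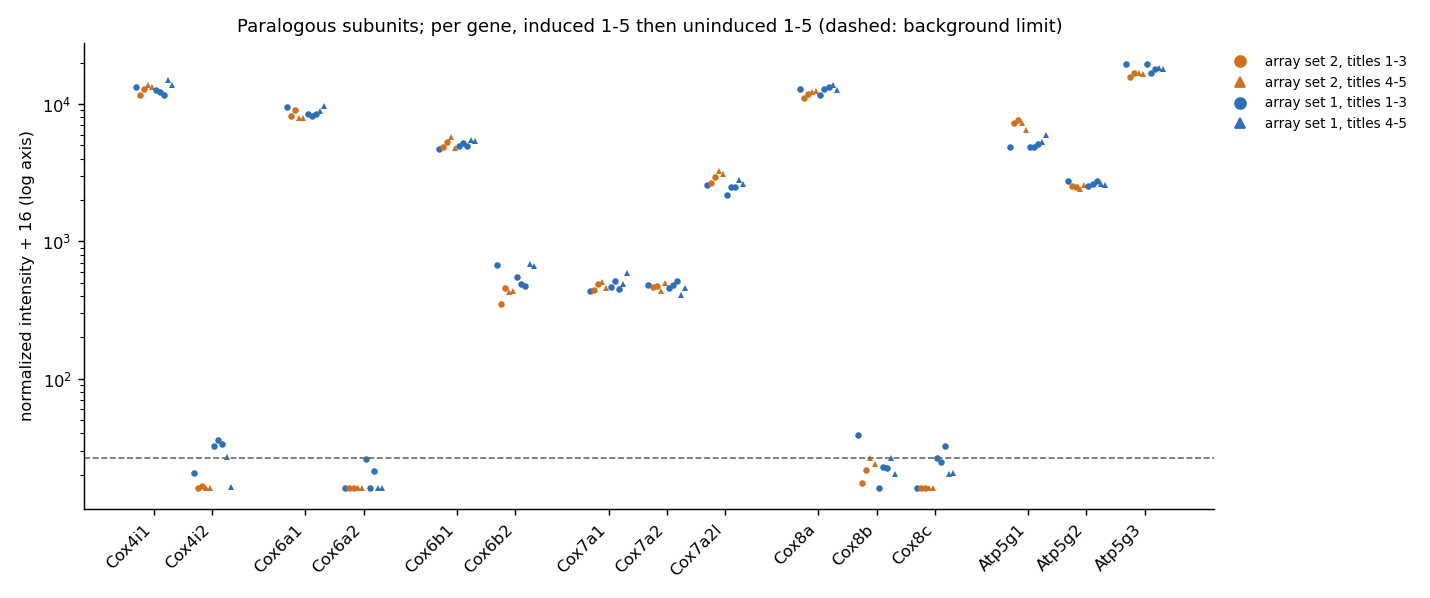
Normalized intensity plus 16 on a log axis is shown for paralogous subunits of complexes IV and V, with 10 points per gene for arrays labelled induced 1 to 5 and then uninduced 1 to 5, colour for the array set, shape for the titles and a dashed line at the background limit. Cox4i2, Cox6a2, Cox8b and Cox8c sit at or near the line, and the heights of different genes are not comparable because each is a different probe.

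Between title groups within a label, no member was called. In the uninduced label, arrays 4 and 5 against 1 to 3 gave 0 of 97 member calls (8 at an unadjusted p under 0.05), against 9.26% of all probes (25.5% unadjusted), with a member median of 0.03 and 88 members whose 95% interval lay within 0.5 log2 of 0. In the induced label, arrays 4 and 5 against 2 and 3 gave 0 of 97 (2 unadjusted), against 7.48% of all probes (20.5% unadjusted), with a median of 0.03 and 85 members within 0.5. The array labelled induced 1 had a mean of its own in this fit because it lies in the other set. The difference between these 2 comparisons was called for 0 members (1 unadjusted), against 0.0133% of all probes (11.8% unadjusted), and 69 members had an interval within 0.5.

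Between title groups, most complex IV differences lay above 0, without a call. On uninduced 4 and 5, 14 of its 16 probes were higher than on uninduced 1 to 3, with a median of 0.15, and on induced 4 and 5, 11 of 16 were higher than on induced 2 and 3, with a median of 0.08. These 16 probes stand for 13 genes. Over all probes 48.8% and 50% lay above 0, with medians of -0.01 and 0.00, and over all 97 members 61 and 60 did. In complex I it was 26 and 25 of 44, in complex III 8 and 6 of 10 and in complex V 10 and 11 of 16. Complex II gave 2 and 3 of 5, and the assembly factors 1 and 4 of 6. Both Cox6a1 probes changed sign between the labels, with 0.15 and 0.12 on uninduced arrays and -0.11 and -0.08 on induced arrays (adjusted p = 0.302, 0.381, 0.578 and 0.691). Cox6b2 gave 0.42 ± 0.12 on uninduced arrays (adjusted p = 0.0626) and 0.10 ± 0.13 on induced arrays (adjusted p = 0.742). Cox4i1 gave 0.23 ± 0.09 (adjusted p = 0.136) and 0.14 ± 0.10 (adjusted p = 0.468), and Cox5a, a subunit of the matrix side, 0.21 ± 0.08 (adjusted p = 0.136) and 0.17 ± 0.09 (adjusted p = 0.327). Cox5a read 11146, 9501, 9629.7, 10832 and 10674 on arrays labelled induced 1 to 5 and 9053, 9591, 9501, 10385 and 11344 on arrays labelled uninduced 1 to 5. Its highest arrays were uninduced 5, induced 1 and induced 4. With induced 1 read beside uninduced 4 and 5, those 3 arrays lay entirely on one side of uninduced 1 to 3 for 18 members (18.6%), against 33.3% of all probes. Induced 4 and 5 lay on one side of induced 2 and 3 for 35 members (36.1%), against 48.5% of all probes, and 8 members did both in the same direction (8.25%), against 17.2% of all probes.

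The endoderm markers moved between the same groups. On uninduced 4 and 5, 7 of 10 were called higher than on uninduced 1 to 3 (median 1.38), with 2.27 ± 0.13 for Gata6, a transcription factor of primitive endoderm. On induced 4 and 5, 5 of 10 were called higher than on induced 2 and 3 (median 0.70), with 1.16 ± 0.14 for Gata6. The list's part in the complex IV values was not tested. The member differences ran from -0.25 to 0.42 in the uninduced label and from -0.23 to 0.54 in the induced label.

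**Figure D5:**
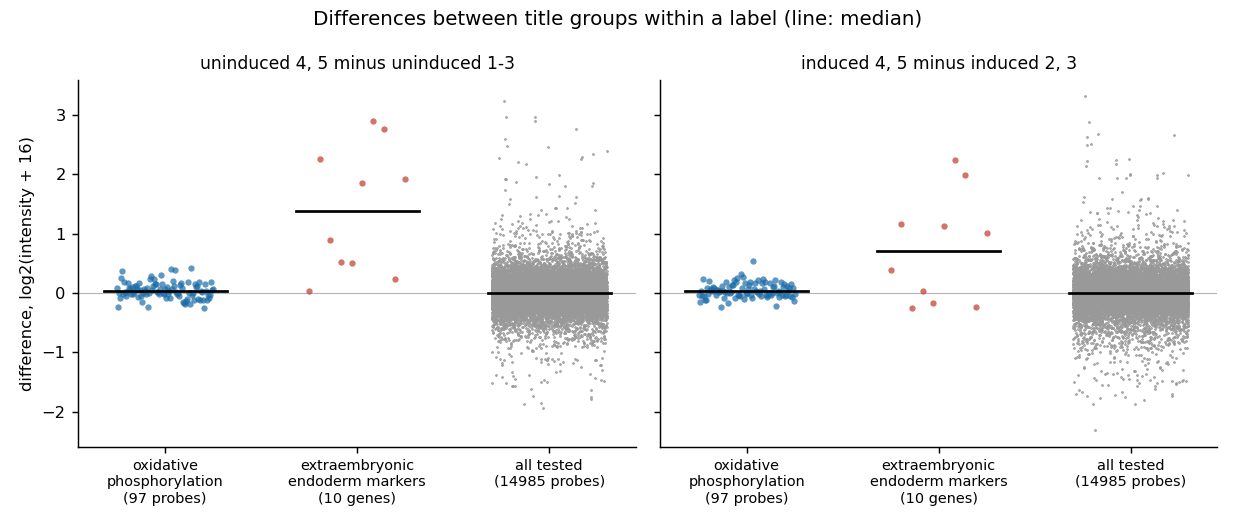
Differences on the log2(intensity + 16) scale are shown for uninduced 4 and 5 minus 1 to 3 (left) and induced 4 and 5 minus 2 and 3 (right), with 97 oxidative phosphorylation probes, 10 extraembryonic endoderm markers and all 14985 tested probes in each panel and bars at the medians. The member medians are 0.03 in both panels, and the marker medians are 1.38 and 0.70.

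The other genes of the pathway were read from lists given by counts only. Between the labels, where 19.5% of all genes were called, 3 of 25 assembly genes were higher on arrays labelled induced and 0 lower, with a list median of 0.12: Cox10, which makes heme O, the precursor of the heme a of complex IV (0.29 ± 0.09, adjusted p = 0.0400), Taco1, which activates translation of the mitochondrial Cox1 message (0.49 ± 0.15, adjusted p = 0.0404), and Sdhaf2, which helps attach FAD to Sdha (0.47 ± 0.12, adjusted p = 0.0261). Of 8 carriers and pores, 2 were higher and 0 lower: cytochrome c, Cycs, averaged 101 ± 21.2 on arrays labelled induced and 61.3 ± 7.07 on arrays labelled uninduced (0.58 ± 0.12, adjusted p = 0.0209), and the phosphate carrier Slc25a3 gave 0.33 ± 0.09 (adjusted p = 0.0340). Of 71 mitochondrial ribosome genes, 3 were higher (Mrpl48, Mrpl58 and Mrps7) and 1 lower (Mrpl47), with a list median of 0.13. Of 16 genes of the citric acid cycle and pyruvate dehydrogenase 0 were called between the labels. Over these lists and the regulators below, 11 of 132 genes were called (8.33%). Without induced 1 it was 55, against 44.9% of all genes, and with the array set as a block 0, as over all probes.

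Regulators of mitochondrial biogenesis gave 1 higher and 1 lower call of 12 between the labels, where 19.5% of all genes were called. Twnk, the helicase of mitochondrial DNA, averaged 302 ± 89.8 on arrays labelled induced and 153 ± 7.71 on arrays labelled uninduced (0.86 ± 0.20, adjusted p = 0.0234). Ppargc1b, a coactivator of respiratory genes, averaged 72.3 ± 21.6 on arrays labelled induced and 122 ± 24.3 on arrays labelled uninduced (-0.66 ± 0.16, adjusted p = 0.0259). Nrf1 and Tfam, which act on nuclear and mitochondrial promoters of the system, gave 0.17 ± 0.11 (adjusted p = 0.279) and -0.02 ± 0.08 (adjusted p = 0.847). Between title groups of the uninduced label, Ppargc1b was lower on arrays 4 and 5 (-0.45 ± 0.09, adjusted p = 0.0161). In the same comparison 1 citric acid cycle gene was higher, Ogdh of the oxoglutarate dehydrogenase complex (0.38 ± 0.09, adjusted p = 0.0301). Lower there were 3 of the 16: Idh3a (-0.37), Suclg2 (-0.35) and Pdk1, a kinase that shuts off pyruvate dehydrogenase (-0.49 ± 0.09, adjusted p = 0.0103). The assembly, carrier and mitochondrial ribosome lists gave 0 calls of 25, 8 and 71 in that comparison, where 10% of all genes were called. In the induced label only Cox14, a cytochrome c oxidase assembly factor, was called among the lists, against 8.38% of all genes. It was higher on arrays 4 and 5 than on 2 and 3 (0.41 ± 0.09, adjusted p = 0.0272).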

How the data were processed

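Total RNA of 10 samples was hybridised to Illumina bead arrays, per the labels' protocols as biotin-labelled cRNA. The authors deposited 1 normalized intensity per probe and array. Judged from the values, background was subtracted (25.5% lie below 0) and arrays were quantile normalized. Every value recurs exactly on another array, and the 75th percentile is 250.0 on each. The array medians are close but not identical (21.7 to 22.0). Which software did the normalization was not given in the sources used here. A deposited table of 20 columns without normalization could not be tied to samples and was not used.

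Probes were named from the platform annotation. The scale was log2 of the value plus 16, after raising negative values to 0. The background limit, 10.6, came from values below 0 mirrored about 0 (SD 6.45). Tests were two-sided, from lmFit and eBayes of limma 3.58.1 in R 4.3.3, with Benjamini-Hochberg adjustment over all 14985 tested probes and a threshold of 0.05. The label comparison used all 10 arrays. Comparisons of title groups came from 1 fit with a mean per label, title group and array set. The scripts were checked on simulated data. For arrays, their number limits the precision. The named genes were, per complex, up to 4 called members in each direction, the 2 most intense, and fixed paralog groups. Others (core subunits, Cox5a, further probes of named genes and genes of the other lists) were named after their values were seen. The members, gene lists, title groups and sets were chosen with earlier results of these data known. Where most arrays of a group were under the limit, the fold is a lower bound with values raised to it. The alternatives were the added constant (1, 64), the filter, quantile and loess normalization, array weights, blocks and leaving out each array. Figures were drawn with matplotlib 3.10.9.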

Additional observations from a re-analysis of the deposited data

Results flagged for a closer look

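In 8 of 70 groups of 5 arrays checked for the named members, 1 array stood apart from the other 4 of its label (gap over range above 0.71), and chance flags about 1 group in 20. The array labelled induced 1 did so for Ndufaf5 (421, the highest of its label) and Atp5o (372, the lowest). Others were Sdhb on induced 5 (2093), Uqcr10 on induced 4 (9777), Ndufab1 on uninduced 4 (26.1), Atp5e on uninduced 5 (159), and Uqcrh and Ndufaf1 on uninduced 3 (8842 and 1180.3). These are given as values only.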

How the results depend on the processing

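Of 219 alternative values for the called members, 108 stayed called in the same direction, 108 kept the direction without a call and 3 had the opposite sign, all with the array set as a block: Ndufc1 0.0251, Atp5e -0.0218 and Atp5o -0.10. The label count of 10 member probes became 6 with no filter (2.14% of all probes called), 36 with array weights (48.8%; induced 1 has a weight of 0.169), 0 with the array set as a block and 0 within titles 1 to 3 (0 of all probes in both). Leaving out 1 array gave 0 to 30 members: 30 without induced 1, 2 without induced 3, 0 without induced 2, 4 or 5, 0 without uninduced 1, 2 or 3, 6 without uninduced 4 and 7 without uninduced 5, while the share of all probes called ran between 0.0934% and 45.5%. The other settings gave 7 to 13. Between uninduced title groups 1 member, Cox6b2, was called with an added constant of 64 and from the uninduced arrays alone, and leaving out 1 array gave 0 to 2 members (Ndufb4 and Cox7b without uninduced 4). Between induced title groups 1, Atp5pb, was called with no filter. Of 2133 alternative values for named members that were not called, 2117 stayed so. The 11 called genes of the other pathway lists became 6 with an added constant of 1, 28 with 64, 1 with no filter, 58 with array weights, 0 with the set as a block, 26 with the title group as a block, 0 within titles 1 to 3, 24 within titles 4 and 5 and 0 to 55 when 1 array was left out. The share of all probes called was 11.2% with a constant of 1, 21.4% with 64, 26.6% with the title group as a block and 29.4% within titles 4 and 5. Arrays with the same title number correlated in their deviations at 0.31, 0.29, 0.30 and 0.31 for numbers 2 to 5 and -0.06 for number 1, and 2 of 10 arrays correlated best with their own number, so the numbers were not taken as pairs. With the title number as a replicate block 9 members were called, against 10 without it, and with the description number as a replicate block the comparison of uninduced title groups called 0 members. Probes near background, such as Uqcrq, are limited by signal.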

Other observations

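Groups of arrays seen in the data give 8 members that were ordered alike in both labels, with no test. That is 8.25% of the members, against 17.2% of all probes. Uninduced 4 and 5 with induced 1 lay entirely above uninduced 1 to 3, and induced 4 and 5 entirely above induced 2 and 3, for Cox4i1, Cox5a, Cox7a2l, Atp5c1 and the dim Atp5j probe, and below for Ndufaf4, Atp5pb and the most intense Ndufa5 probe. Atp5c1, the gamma subunit that turns in the central stalk, read 5739, 5835, 5459, 5917 and 6026 on arrays labelled induced 1 to 5 and 5393, 5372, 5385, 5519 and 6109 on arrays labelled uninduced 1 to 5. Atp5pb, the b subunit of the peripheral stalk, read 2675, 3057, 2921, 2555 and 2593 on arrays labelled induced and 2846, 2748, 2713, 2549 and 2571 on arrays labelled uninduced.

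Ndufs5-ps, annotated as a pseudogene, read 1090.5, 1412, 1641, 1623 and 1667 on arrays labelled induced 1 to 5 and 1282, 1255, 1193, 1363 and 1411 on arrays labelled uninduced 1 to 5, with induced 1 the lowest array of all. It was not called with all arrays, and was called higher without induced 1 (0.28, adjusted p = 0.0147). Whether this probe reads the pseudogene or its parent gene was not tested. Ndufs1, the largest core subunit of complex I, has a probe that lay under the background limit on all 10 arrays, with no value above 2.33, and it was not tested.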
